A study of Rattus norvegicus with 6 samples.

Results

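The genes described here are 10 that are known to rise in neurons of the dorsal root ganglia (DRGs) after their peripheral axon is cut. They are Gap43, Basp1, Sprr1a, Ecel1, Gadd45a, Gch1, Reg3b, Klf6, Klf7 and Nts. They were picked by gene name from a table of raw read counts for 25689 genes, and each name matched 1 row. PRATA was compared with sham to see how complete the nerve injury pattern was.

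RNA was sequenced from neurons isolated from L1-L2 DRGs, which are among the ganglia that send sensory nerves to the perirenal fat. All rats were wild-type spontaneously hypertensive rats (SHRs), an inbred strain that develops high blood pressure, and the labels give an age of 6 to 8 weeks. The study's methods give an older age, and which one holds for these samples is not known. In 3 samples the rats had undergone surgical removal of the fat around both kidneys (perirenal adipose tissue ablation, PRATA), and in 3 samples a sham operation. Per the study's methods, ganglia of both sides were taken 4 weeks after the operation, digested with collagenase and trypsin, and kept on a dish for 5 h so that neurons could be flushed off before they adhered. The axons of every neuron were therefore cut at dissection in both groups. Whether the samples responded alike to that step was not tested. L1-L2 DRGs also hold neurons that do not project to this fat. Neither the labels nor the methods say that the samples came from separate animals, so the p-values measure the spread between these samples.

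When a peripheral axon is cut, the cell body of a sensory neuron switches on transcription factors such as Atf3, Jun and Sox11, then growth proteins that are carried to the new axon tip, and several neuropeptides. Over the same period the genes of the resting sensory neuron, such as those for neurofilaments, sodium channels and pain receptors, fall. Schwann cells and satellite glia around the neuron have an injury response of their own, which includes the growth factor gene Gdnf. Gap43 and Basp1 encode membrane proteins of the growth cone that act on the actin cytoskeleton.

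Total counts lay between 5892967 and 15226952 per library, lowest in sham 2, and levels are given as CPM, that is, TMM-scaled counts for a common library size. PRATA 3 and sham 1 stood apart from the other libraries: the 7SL RNA gene Rn7sl1 took 5.40% and 5.63% of their counts, against 1.25% to 1.52% in the other 4. The sum of 12 sensory neuron markers was 7576 to 9182 CPM after PRATA and 4545 to 6771 CPM after sham, so the groups did not overlap. Taken singly, 4 of the 12 markers were higher after PRATA without overlap, beside 11.6% of all genes tested. The sum of 12 glial markers was 4063 to 7606 CPM after PRATA and 5112 to 9210 CPM after sham, and PRATA 2 held the lowest neuron sum and the highest glial sum of the PRATA libraries. Macrophage markers (10 genes) summed to 22.5 to 76.1 CPM after PRATA and 23.9 to 57.8 CPM after sham, and 1 of them was at 0 in a library. The summed neuron markers thus differed between the groups, and their part in the results was not tested. In bulk RNA, fewer cells of a type and less RNA per cell cannot be told apart.

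Sequences just upstream of the start were matched for 9 of the 10 genes in RefSeq (rat build GRCr8), all but Gap43. Each covers 250 bases, and 4 are shown because they belong to the growth genes with the tightest separation (Basp1, Klf7) and to the genes that hold the motif of the factors Jun and Atf3 work with (Sprr1a, Nts). In the lines below, capitals mark AP-1 motifs, TATA boxes and GC boxes, spelled out after the lines and searched on both strands. They lie at chr2:77594298-77594547 (Basp1), chr9:73020057-73020306 (Klf7), chr2:180752626-180752875 (Sprr1a) and chr7:39460889-39461138 (Nts), all on the minus strand.
Basp1: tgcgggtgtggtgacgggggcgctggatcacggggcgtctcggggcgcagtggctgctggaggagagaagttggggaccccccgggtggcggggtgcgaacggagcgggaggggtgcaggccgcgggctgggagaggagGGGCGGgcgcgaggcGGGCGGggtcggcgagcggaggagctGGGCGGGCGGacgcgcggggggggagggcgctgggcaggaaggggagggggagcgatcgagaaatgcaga
Klf7: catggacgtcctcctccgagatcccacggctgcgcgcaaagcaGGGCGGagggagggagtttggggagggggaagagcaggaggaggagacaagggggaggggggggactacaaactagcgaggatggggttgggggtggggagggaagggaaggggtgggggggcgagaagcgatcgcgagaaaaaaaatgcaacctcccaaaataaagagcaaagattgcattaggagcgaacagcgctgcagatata
Sprr1a: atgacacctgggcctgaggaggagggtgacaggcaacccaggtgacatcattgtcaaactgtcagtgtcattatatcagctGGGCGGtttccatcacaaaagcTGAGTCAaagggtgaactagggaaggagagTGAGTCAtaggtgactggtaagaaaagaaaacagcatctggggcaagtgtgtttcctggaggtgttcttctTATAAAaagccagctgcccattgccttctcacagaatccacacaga
Nts: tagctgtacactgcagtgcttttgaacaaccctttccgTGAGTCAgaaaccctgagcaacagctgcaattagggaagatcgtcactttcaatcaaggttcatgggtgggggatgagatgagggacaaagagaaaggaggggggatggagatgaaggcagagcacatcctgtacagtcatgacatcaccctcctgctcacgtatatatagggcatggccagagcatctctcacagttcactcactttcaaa

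The AP-1 motif TGACTCA was found upstream of 2 of the 9 genes and of 4.05% of 33469 rat promoters of the same length. Sprr1a held 2, at 147 and 117 bases before the start, and Nts held 1 at 212 bases. The full CRE motif (TGACGTCA) was found upstream of 0 of the 9 genes and of 1.59% of all promoters. The TATA box, searched as TATAAA, lay upstream of Sprr1a and Reg3b, and of 12.9% of all promoters. The GC box, searched as GGGCGG, lay upstream of 6 of the 9 genes (Basp1, Gch1, Sprr1a, Gadd45a, Klf6 and Klf7), against 30.5% of all promoters. These 250 bases of Basp1 held 76.8% G and C, where the median promoter held 51.2%. GC boxes that share letters with one another, as in Basp1, were counted separately, and a match is a stretch of letters only.

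The expression of 9 of the 10 genes could be tested, because Sprr1a did not pass the filter on low counts. Of these 9, 7 had a higher fitted level after PRATA and 2 a lower one. Gap43, Basp1, Klf7, Gch1 and Reg3b were higher with an unadjusted p under 0.05 by edgeR's quasi-likelihood test, and 0 were lower. Among all 14919 genes tested, 8.19% were higher at that threshold. None of the 9 had an adjusted p under 0.05 (Benjamini-Hochberg), and 0% of all genes tested did. An unadjusted p under 0.05 was held by 2734 genes, in either direction. The median log2 fold change of the 9 genes was 0.77, beside 0.02 over all genes tested. The same 5 genes were those whose PRATA and sham libraries did not overlap, which held for 11.6% of all genes in the direction of PRATA. With DESeq2, Basp1 and Klf7 had an adjusted p under 0.05, as did 2.28% of the genes with such a value in the direction of PRATA. Gch1, Reg3b and Nts had no adjusted p in that fit. With limma voom and quality weights Gap43, Basp1 and Klf7 did, and 3.0% of all genes. Without sham 2, edgeR called Gap43 and Basp1, and 1.05% of all genes. In the 4 libraries left without PRATA 3 and sham 1, 6 of the 9 were higher at an unadjusted p under 0.05, the same 5 and Klf6. Without PRATA 2 it was 2 of the 9. Among all genes tested in these fits, 1907 of 14808 and 2371 of 15408 passed that threshold, in either direction. Since no gene passed in edgeR with all 6 libraries, differences below are given as values.

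**Figure D1:**
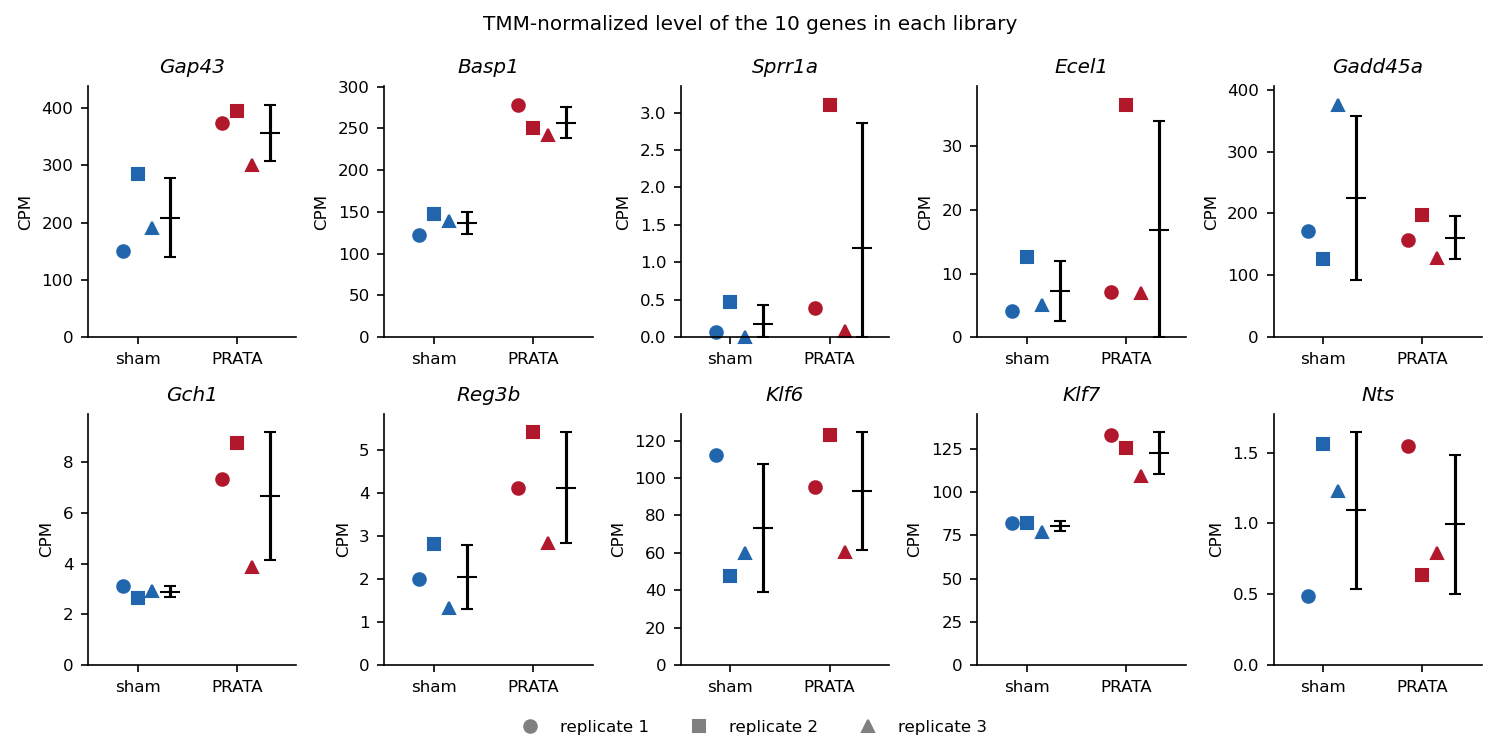
TMM-scaled level of each of the 10 genes (CPM, vertical axis from 0) in the 3 sham (blue) and 3 PRATA (red) libraries, with marker shape giving the replicate number and the black bar the mean and SD. Gap43, Basp1, Klf7, Gch1 and Reg3b show no overlap between groups, while Ecel1 and Sprr1a are high in PRATA 2 alone.

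The growth cone proteins Gap43 and Basp1 were both higher in every PRATA library than in every sham library. Basp1 (ENSRNOG00000046313) measured 279, 251 and 242 CPM in PRATA 1, 2 and 3 and 122, 148 and 139 CPM in sham 1, 2 and 3. The means were 257 ± 19.1 after PRATA and 136 ± 13.2 after sham (SD, n = 3 each). The log2 fold change was 0.92 with a standard error of 0.17, an unadjusted p of 0.000633 and an adjusted p of 0.156 by edgeR. Across 15 other settings the log2 fold change of Basp1 was always positive.

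Gap43 (ENSRNOG00000001528) measured 374, 394 and 301 CPM after PRATA and 150, 285 and 190 CPM after sham. The sham libraries varied more here than those of Basp1, and sham 2 came closest to PRATA 3. Means were 356 ± 49.4 and 209 ± 69.4 CPM (SD, n = 3 each). Its log2 fold change was 0.77 with a standard error of 0.27, an unadjusted p of 0.0196 and an adjusted p of 0.211 by edgeR. Without sham 2 the log2 fold change was 1.07 with an adjusted p of 0.0424. Without PRATA 2 it was 0.70 with an unadjusted p of 0.0586 and an adjusted p of 0.337.

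The Krüppel-like transcription factors Klf6 and Klf7 both promote axon growth when raised in neurons. Klf7 (ENSRNOG00000046242) measured 133, 126 and 110 CPM after PRATA and 82.2, 82.3 and 77.2 CPM after sham. The 3 sham libraries lay close together and every PRATA library lay above them. The log2 fold change was 0.61 with a standard error of 0.15, an unadjusted p of 0.00427 and an adjusted p of 0.167 by edgeR. Klf6 (ENSRNOG00000016885) measured 95.4, 123 and 60.4 CPM after PRATA and 112, 47.6 and 59.7 CPM after sham, with overlapping groups. Its log2 fold change was 0.34 with a standard error of 0.36 and an adjusted p of 0.648. In the 4 libraries left without PRATA 3 and sham 1, the log2 fold change of Klf6 was 1.02 with an unadjusted p of 0.00435 and an adjusted p of 0.206.

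Gch1 and Reg3b had low counts and were higher in all PRATA libraries. Gch1 (ENSRNOG00000011039) encodes GTP cyclohydrolase, the first enzyme in the synthesis of tetrahydrobiopterin, a cofactor whose synthesis increases in injured sensory neurons. It measured 7.36, 8.76 and 3.87 CPM after PRATA and 3.11, 2.65 and 2.93 CPM after sham, from 49 to 110 and 17 to 45 counts. PRATA 3 was the lowest of the PRATA libraries and lay near the sham libraries. The log2 fold change was 1.19 with a standard error of 0.36, an unadjusted p of 0.0110 and an adjusted p of 0.182 by edgeR.

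Reg3b (ENSRNOG00000006151) encodes a secreted lectin that axotomized neurons make. It measured 4.13, 5.42 and 2.85 CPM after PRATA and 2.0, 2.81 and 1.32 CPM after sham. PRATA 3 and sham 2 were almost level. The log2 fold change was 1.03 with a standard error of 0.42, an unadjusted p of 0.0407 and an adjusted p of 0.253 by edgeR. Without PRATA 2 its unadjusted p was 0.169, and without sham 3 it was 0.118. Reads of Reg3b may be shared with the other Reg3 genes, which the sources do not settle.

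Ecel1 and Sprr1a, both of which are low in uninjured ganglia, were high in PRATA 2 alone. Ecel1 (ENSRNOG00000019447) encodes a membrane peptidase-like protein that is induced by axon damage. It measured 7.10, 36.6 and 6.88 CPM after PRATA and 4.08, 12.6 and 5.01 CPM after sham. PRATA 2 stood at 36.6 CPM, while PRATA 1 and 3 lay within the range of the sham libraries. The log2 fold change of 1.26 had a standard error of 0.72 and an adjusted p of 0.382, and without PRATA 2 it was -0.02.

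Sprr1a (ENSRNOG00000024028) encodes a small proline-rich protein of the axon tip. It had 3, 39 and 1 counts after PRATA and 1, 3 and 0 counts after sham. A count of 0 in sham 3 allows up to 0.283 CPM, since 3 counts equal that level, and these intervals cover counting error only. With the exception of PRATA 2, every library was at or under 3 counts. Its level in PRATA 2 was 3.11 CPM, and no fold change against sham is given. Without the filter on low counts, edgeR gave an unadjusted p of 0.0488 and an adjusted p of 0.367, a value that rests on PRATA 2.

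Gadd45a and Nts, a gene of the response to DNA damage and stress and a gene for the neuropeptide neurotensin, showed no difference beyond the spread. Gadd45a (ENSRNOG00000005615) measured 158, 197 and 129 CPM after PRATA and 172, 126 and 376 CPM after sham. Its highest library was sham 3, and without it the log2 fold change went from -0.48 to 0.12. With all libraries the standard error was 0.39 and the adjusted p 0.533. Nts (ENSRNOG00000004179) had 12, 8 and 10 counts after PRATA and 7, 10 and 13 counts after sham. No change of Nts was detected, with a log2 fold change of -0.12, a standard error of 0.63 and an adjusted p of 0.940 by edgeR. At this depth a small change could have been missed.

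**Figure D2:**
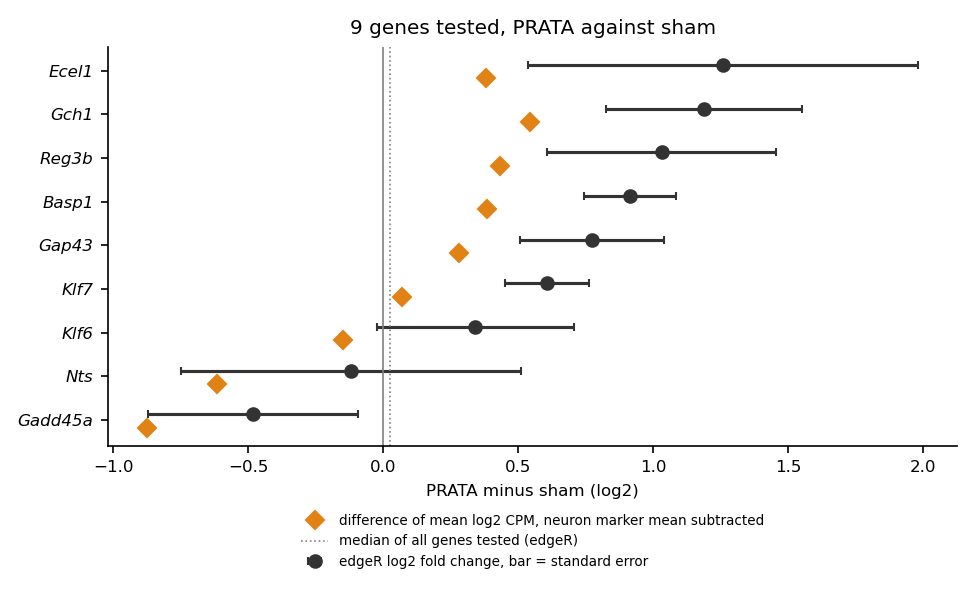
Log2 fold change of the 9 tested genes, PRATA minus sham, with the standard error (black), and the difference of mean log2 CPM after each library's mean over 12 neuron markers was subtracted (orange). The subtraction lowers every difference of mean log2 CPM by the same amount, after which Gch1 stands at 0.55 and Basp1 at 0.38. The black values come from the edgeR fit, so their distance from the orange ones varies by gene.

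Levels were also set relative to the neuron markers, which were higher in the PRATA libraries. The mean log2 CPM of the 12 markers was 8.15 to 8.51 after PRATA and 7.58 to 8.12 after sham. Subtracting that mean in each library lowers the difference of every gene by the same amount, so a smaller value or a change of sign follows from the step itself, and whether neuron content sets the values was not tested. After it, Basp1 remained without overlap, with a difference of 0.38 on the log2 scale and an exact two-sided permutation p of 0.10, the smallest that 3 samples against 3 allow. The other 8 genes overlapped. The differences were 0.28 for Gap43, 0.07 for Klf7, 0.55 for Gch1, 0.43 for Reg3b and -0.15 for Klf6. After the same step, 101 of all 14919 genes (0.677%) did not overlap in the direction of PRATA and 4984 did not overlap in the other direction.

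Most but not all of the 10 genes were highest in PRATA 2 and, among the PRATA libraries, lowest in PRATA 3. Basp1 and Klf7 were highest in PRATA 1, Gadd45a in sham 3 and Nts in sham 2. PRATA 2 was the highest of the 6 libraries for 6 of the 10 genes, or 5 of the 9 tested, and for 11.7% of all genes tested. PRATA 3 was the lowest of the PRATA libraries for 9 of the 10 genes, or 8 of the 9 tested, and for 31.2% of all genes. The same held for 22 of the 32 other genes that rise after axotomy, described below, and for 9 of the 12 glial markers. It held for 2 of the 23 genes that fall and for 0 of the 12 neuron markers. PRATA 2 also held the most glial marker RNA of the PRATA libraries, and whether that bears on the places of PRATA 2 and PRATA 3 was not tested. Basp1 and Klf7 were the genes that kept an unadjusted p under 0.05 without PRATA 2.

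A further 33 genes known to rise after axotomy matched the table, of which 32 were tested. This list was written from general knowledge with earlier results of these data known. Of the 32, 14 were higher and 2 lower with an unadjusted p under 0.05, beside 8.19% and 10.1% of all genes, and the median log2 fold change was 0.62. Without PRATA 2, 8 were higher and 2 lower, and without sham 3, 8 of 33 were higher and 2 lower. In the 4 libraries without PRATA 3 and sham 1, 19 of 33 were higher and 2 lower. Among all genes, 2371 of 15408, 1471 of 15758 and 1907 of 14808 in these fits had an unadjusted p under 0.05, in either direction. Relative to the neuron marker mean, 4 of the 32 (Sox11, Adcyap1, Bdnf and Vgf) stayed higher without overlap, beside 0.677% of all genes. Adcyap1 was named after its values were seen. In the other direction 3 of the 32 did not overlap, which held for 4984 of all 14919 genes.

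The transcription factors that start the response were among those higher. Sox11 measured 28.0, 33.9 and 21.6 CPM after PRATA and 9.81, 10.8 and 9.07 CPM after sham, with no overlap. Its log2 fold change was 1.5 with a standard error of 0.22, an unadjusted p of 0.000129 and an adjusted p of 0.156 by edgeR. Atf3 measured 278, 327 and 108 CPM after PRATA and 125, 82.7 and 56.5 CPM after sham. The groups of Atf3 overlapped because PRATA 3 lay below sham 1, and its log2 fold change was 1.43 with a standard error of 0.44 and an adjusted p of 0.182. In the 4 libraries without PRATA 3 and sham 1 it was 2.12 with an adjusted p of 0.0592. Jun measured 749, 950 and 428 CPM after PRATA and 520, 309 and 315 CPM after sham, with a log2 fold change of 0.89 and an adjusted p of 0.233. As with Gch1, PRATA 3 was the lowest PRATA library for all 3 factors.

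The neuropeptide genes Gal and Npy were high in PRATA 2. Gal, for galanin, measured 13.2, 70.8 and 2.93 CPM after PRATA and 3.87, 9.99 and 5.20 CPM after sham. Npy, for neuropeptide Y, measured 3.10, 33.9 and 0.32 CPM after PRATA and 2.63, 1.56 and 0.28 CPM after sham. PRATA 2 was the highest library for both, while PRATA 3 lay below the sham range for Gal and within it for Npy. Their unadjusted p-values in the edgeR fit were 0.0512 and 0.0584, with adjusted p of 0.275 and 0.289. Ecel1 and Sprr1a were likewise highest in PRATA 2, whereas the member Nts was lowest of the PRATA libraries there.

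The genes with the smallest p in each direction, beside Sox11, were Vgf and Bdnf, which were higher, and Csf1 and Tnfrsf12a, which were lower, and none of the 4 overlapped between groups. Vgf, a neuropeptide precursor, measured 172, 183 and 212 CPM after PRATA and 81.7, 104 and 79.8 CPM after sham, with a log2 fold change of 1.10 and an adjusted p of 0.156. Bdnf, a neurotrophin, measured 50.9, 38.3 and 47.3 CPM after PRATA and 24.7, 24.7 and 22.5 CPM after sham, with a log2 fold change of 0.93 and an adjusted p of 0.156. Csf1, which injured neurons use to call microglia, ran the other way at 125, 148 and 102 CPM after PRATA and 239, 211 and 202 CPM after sham. Tnfrsf12a, a receptor that promotes neurite growth, measured 56.9, 54.6 and 45.6 CPM after PRATA and 157, 68.1 and 146 CPM after sham. The log2 fold changes of Csf1 and Tnfrsf12a were -0.80 and -1.24, with adjusted p of 0.156 and 0.158.

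**Figure D3:**
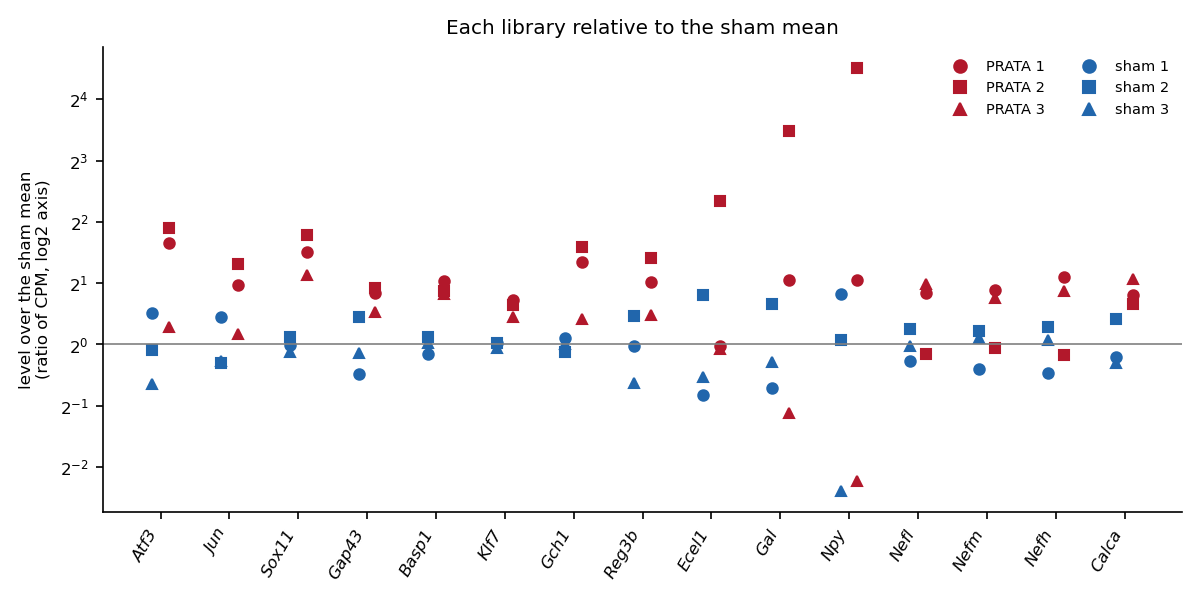
Level of each gene in each library divided by the mean of the sham libraries (log2 vertical axis), for genes that rise after axotomy (Atf3 to Npy) and genes that fall (Nefl to Calca). PRATA 2 (red squares) is highest for Ecel1, Gal and Npy, with 36.6, 70.8 and 33.9 CPM, and lowest of the PRATA libraries for Nefl, Nefm and Nefh.

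A further group of genes falls in axotomized neurons, and none of these was lower here at an unadjusted p under 0.05 in the edgeR fit. Of 23 such genes, all tested, 5 were higher, Calca and Calcb among them, and 0 were lower with an unadjusted p under 0.05, beside 8.19% and 10.1% of all genes. A positive log2 fold change was found for 22 of the 23, with a median of 0.46, and for 7760 of all 14919 genes. The genes of calcitonin gene-related peptide, Calca and Calcb, had log2 fold changes of 0.85 and 0.69, each with an adjusted p of 0.175 by edgeR and groups without overlap. The sensory neuron markers moved the same way as this group: 4 of 12 were higher and 0 lower at an unadjusted p under 0.05, against the same 8.19% and 10.1%, with a median log2 fold change of 0.42.

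Neurofilament genes, named after their values were seen, split the PRATA libraries. Nefh measured 3315, 1366 and 2803 CPM after PRATA and 1119, 1878 and 1618 CPM after sham. PRATA 2 lay within the sham range and PRATA 1 and 3 above it, and the same held for Nefl and Nefm. PRATA 2 was the highest library for 18 of the 32 genes that rise (56.3%), for 1 of the 23 genes that fall, for 0 of the 12 neuron markers and for 5 of the 12 glial markers (41.7%), beside 11.7% of all genes. Without PRATA 2, 13 of the 23 genes that fall were higher with an unadjusted p under 0.05, and in the 4 libraries without PRATA 3 and sham 1, 0 were. Over all genes, 2371 of 15408 and 1907 of 14808 had such a p in these fits, in either direction.

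Glial injury genes were read from a list of 7, of which 5 were tested, with 1 higher and 3 lower at an unadjusted p under 0.05, beside 8.19% and 10.1% of all genes. Gdnf measured 3.87, 6.21 and 6.25 CPM after PRATA and 31.8, 13.1 and 32.2 CPM after sham, with a log2 fold change of -2.23 and an adjusted p of 0.156. Btc and Runx2 had log2 fold changes of -1.60 and -1.58, and Shh, the ligand Sonic hedgehog, one of 0.99 with an adjusted p of 0.227. Among the 12 glial markers 1 was higher (Prx) and 1 lower (Sox10), close to those shares of all genes. The library sham 2 was the lowest sham library for Gdnf and for the glial sum alike, the part of which was not tested.

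**Figure D4:**
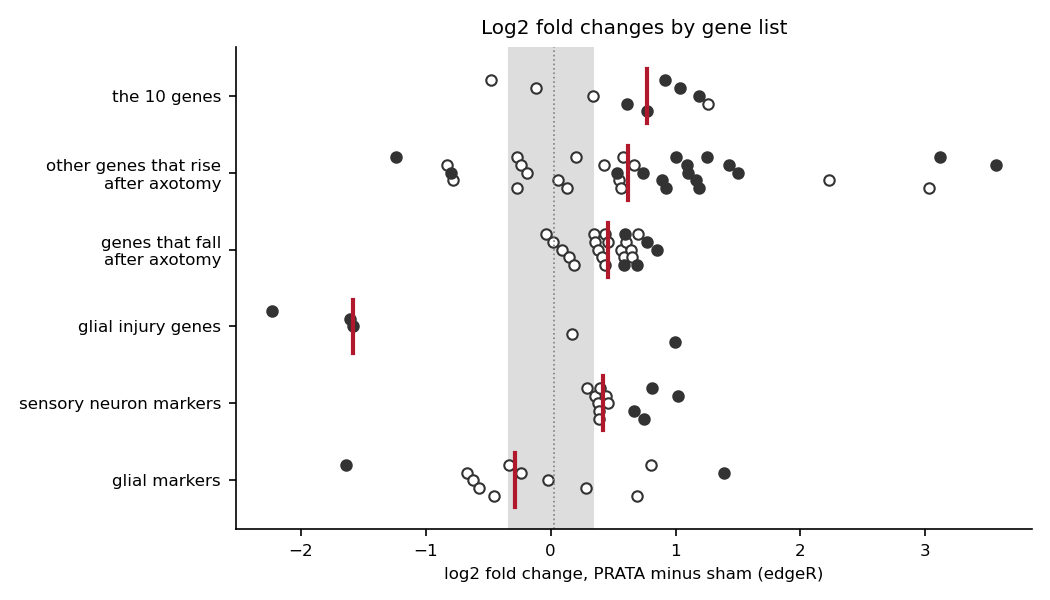
Log2 fold change of each tested gene (points) by list, PRATA minus sham, filled where the unadjusted p is under 0.05, with the list median in red and the interquartile range of all genes tested in grey. The medians are 0.77 for the 9 tested of the 10 genes, 0.62 for the other genes that rise, 0.46 for the genes that fall and -1.58 for the glial injury genes.

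Genes whose log2 CPM most resembled Gap43 over the 6 libraries were Gne, Clu and Tep1, with Pearson r of 0.992, 0.992 and 0.991, and 89 genes had r over 0.95. For Sprr1a they were LOC100360218, Atp2b4 and Mettl7a, with r of 0.993, 0.982 and 0.981, and 20 genes over 0.95. These values are descriptions over 6 libraries that share 2 groups and differ in depth. With the exception of PRATA 2, every library held 3 or fewer counts of Sprr1a, so its profile rests on very few reads.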

How the data were processed

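The authors deposited a table of raw counts of reads per gene, without normalization, for 6 samples of RNA from isolated L1-L2 DRG neurons. The study's methods describe stranded total RNA libraries, and the submitters' processing notes name STAR 2.7.3a, RSEM and DESeq2, while the methods name HISAT2, StringTie and Cuffdiff. Which of them made the deposited counts, the genome build, the annotation and the strand setting of the counting are not given in the sources used here, so reads of overlapping antisense genes cannot be told apart. All columns of sample values were used, and the groups were taken from the sample labels.

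The analysis used edgeR 4.0.16 in R 4.3.3. Genes were kept by filterByExpr (minimum count 10, minimum total 15), which left 14919 of 25689, and TMM scaling and the two-sided quasi-likelihood test were used, and p-values were adjusted by Benjamini-Hochberg across the whole table of tested genes. For single values the exact two-sided permutation test on log2 CPM was used, whose smallest p is 0.10. The main edgeR fit was tested on simulated data, and the alternatives were not. Alternatives were DESeq2 size factors, library size alone, no filter, at least 10 counts in every sample, DESeq2 1.42.0, limma-trend on log2(CPM + 1) and limma voom with quality weights (limma 3.58.1), the replicate block, each replicate left out in turn, the 4 libraries without PRATA 3 and sham 1, and subtraction of the neuron marker mean. Counts of the wider lists under each setting were added after seeing the data.

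The members and lists were chosen with earlier results of these data known. Named were all 10 members; Atf3, Jun, Sox11, Gal and Npy; up to 3 genes in each direction with the smallest p among those with an unadjusted p under 0.05 in each injury list; markers on which a result turns; and the 3 genes most like Gap43 and Sprr1a. Not every gene so chosen is reported here. The neurofilament genes and the relatives in the closing section were named after their values were seen. Gfra1 of the rise list, Col1a2 and Pecam1 matched no gene name, and Cckbr was not tested. Of the macrophage, fibroblast and endothelial lists, 9, 5 and 5 genes were tested and 0 had an unadjusted p under 0.05. The plots were made in matplotlib 3.10.9 under Python 3.11.15.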

Additional observations from a re-analysis of the deposited data

How the results depend on the processing

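Of all genes, 0 were higher and 0 lower at an adjusted p under 0.05 in edgeR, where DESeq2 called 234 and 510, limma voom with quality weights 447 and 726, and the 4 libraries without PRATA 3 and sham 1 gave 9 and 4. Leaving out each replicate gave 0 to 162 higher and 0 to 559 lower, and the calls came without sham 2. Among the 10 genes, DESeq2 called Basp1 and Klf7. In that fit 10250 genes had an adjusted p, with Gch1, Reg3b and Nts not among them. Voom called Gap43, Basp1 and Klf7, and the fit without sham 2 called Gap43 and Basp1. The number of the 10 genes higher at an unadjusted p under 0.05 was 2 to 6 over the replicates left out, with 2 without PRATA 2 and 3 without PRATA 1 or sham 3. For the other genes that rise it was 8 to 18. For the genes that fall, 5 in edgeR, it was 3 to 13 over the replicates left out, with 13 without PRATA 2, 12 without sham 2 and 3 without PRATA 1, sham 1 or sham 3. It was 3 with library size alone, 8 with no filter, 9 with DESeq2, 15 with voom and 0 in the 4 libraries. Over all genes, an unadjusted p under 0.05 in either direction was held by 2734 of 14919 in edgeR and 4606 with voom. The number was 2758 with DESeq2, 2511 with library size alone, 3476 of 25689 with no filter and 1907 of 14808 in the 4 libraries. Without PRATA 1, 2 and 3 it was 1406 of 15774, 2371 of 15408 and 2000 of 15323. Without sham 1, 2 and 3 it was 2364 of 15360, 4254 of 15438 and 1471 of 15758.

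The log2 fold change of Ecel1 was -0.021 to 1.91 and that of Gadd45a -0.76 to 0.12 over the replicates left out. The difference of mean log2 CPM of Klf6 was -0.15 after subtraction of the neuron marker mean. That step lowers every such difference by the same amount. The log2 fold change of Nts was 0.094 with voom and -0.59 to 0.20 over the replicates left out. The cause of the other changes was not tested. The labels number the replicates of both groups but do not pair them, and once group means were taken off, libraries with the same number correlated at -0.35, -0.05 and -0.35. With the replicate block, 6 of the 9 members tested and 3 of the genes that fall were higher at an unadjusted p under 0.05. Of all 14919 genes, 1528 passed that threshold in either direction, and the smallest adjusted p was 0.461. Depth limited Sprr1a and Nts, with 0 to 39 and 7 to 13 counts.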

Other observations

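Relatives of the 10 genes were read by family name, after the values of the 10 genes had been seen. Marcks, a relative of Gap43 and Basp1 in membrane and actin binding, measured 79.0, 126 and 100 CPM after PRATA and 310, 98.8 and 193 CPM after sham, with a log2 fold change of -0.98, an unadjusted p of 0.0334 and an adjusted p of 0.238 by edgeR. Its direction was opposite to that of Gap43 and Basp1, and the groups overlapped because sham 2 was low. Of the other Krüppel-like factors, 15 were in the table, 13 were tested and 0 had an unadjusted p under 0.05 by edgeR, and Klf4 had the largest positive log2 fold change (0.94, adjusted p 0.357).

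Gadd45g, a relative of Gadd45a, measured 86.7, 90.7 and 65.2 CPM after PRATA and 53.0, 26.5 and 45.1 CPM after sham, with no overlap, a log2 fold change of 0.96 and an adjusted p of 0.171. Gadd45b overlapped, at -0.34 with an adjusted p of 0.655. Of the enzymes that make or recycle tetrahydrobiopterin beside Gch1, Qdpr was higher with no overlap, at 83.3, 83.7 and 105 CPM after PRATA and 48.8, 79.0 and 58.8 CPM after sham, with a log2 fold change of 0.54 and an adjusted p of 0.240. Spr and Pts had log2 fold changes of 0.57 and 0.45, with adjusted p of 0.325 and 0.579. The neurotensin receptor gene Ntsr1 was at 0.01 with an adjusted p of 0.990.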
